A study of Mus musculus with 30 samples.

Results

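Microglia are the resident immune cells of the brain, and a second set of macrophages lives along its borders, around blood vessels and in the meninges. A list of 34 genes that mark these cells was followed through 30 Illumina bead arrays of mouse nucleus accumbens, a striatal region involved in reward. Membership came from the list, with no measured value as a criterion. The list was, however, chosen with earlier results of these data known. Of the 34 genes, 33 had a detected probe and were tested among 13228 genes; Itgam, a subunit of complement receptor 3, had its 1 probe detected on 2 arrays and was left out of the tests. A probe was called detected on an array where its intensity exceeded all but 5% of receptor probes taken as negative controls (detection p under 0.05), and it entered the tests if detected on at least 5 arrays. Each tested gene had a value on all 30 arrays, but only 3 genes (Siglech, Laptm5 and Cd68) were detected on every array.

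All mice were C57BL/6J and carried no named allele. The 6 groups were magnetically sorted astrocytes after dexamethasone and after saline, magnetically sorted neurons after dexamethasone and after saline, and unsorted nucleus accumbens tissue after dexamethasone and after saline, with 5 arrays each. Dexamethasone, a synthetic agonist of the glucocorticoid receptor, was given at 4 mg/kg, and RNA was taken 4 h after either injection. Each array held the RNA of a single animal. The sources used here give neither the sort's antibodies nor the sex and age of the mice. The study set out to find receptor-dependent changes that belong to a cell type, and microglia were not sorted: their transcripts were read in fractions prepared for other cells. In such bulk RNA, fewer cells of a type and less RNA per cell cannot be told apart.

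Microglia depend on the receptor Csf1r for survival and keep a resting programme of surface receptors, among them the purine receptors P2ry12 and P2ry13, the fractalkine receptor Cx3cr1 and Tmem119. They make most of the complement protein C1q of the brain and sense lipids and debris through Trem2, which signals through the adaptor Tyrobp. Border macrophages share many of these genes but carry the mannose receptor Mrc1 and the haemoglobin scavenger receptor Cd163, which resting microglia largely lack. Glucocorticoids act on macrophages through the glucocorticoid receptor and are known to repress inflammatory genes and to raise the scavenger receptor Cd163 in human monocytes.

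Promoter sequences were available for 25 of the 34 genes, each running from 250 bases before the start to 50 bases after it (RefSeq, GRCm38.p6). They were searched on both strands for GAGGAAGT, a core recognised by the myeloid factor PU.1, and for AGAACA, the unit that the glucocorticoid receptor's element repeats. GAGGAAGT occurred in 3 of the 25 promoters (12%), those of C1qc, Cd53 and Ctss, against 3.69% of 27025 promoters of all genes and 3.43% of the 9798 that belong to tested genes. AGAACA occurred in 12 of the 25 (48%), against 21.3% of all promoters and 15% of those of tested genes. The sequences below are those of the 3 genes with GAGGAAGT, of C1qb as the partner of C1qc in the same protein, and of Cd163 as a border macrophage gene. They lie at chr4:136886151-136886450 on the minus strand (C1qb), chr4:136892865-136893164 on the minus strand (C1qc), chr6:124304401-124304700 on the plus strand (Cd163), chr3:106790100-106790399 on the minus strand (Cd53) and chr3:95526536-95526835 on the plus strand (Ctss). Each is written 5′ to 3′ in the direction of the gene, and capitals mark every match to either set of letters or to its reverse complement. Every sequence shown holds AGAACA, so they do not stand for all 25. Mrc1, also a border macrophage gene, held neither set of letters, and Ms4a6d had no promoter among the 25. A match describes the letters only and is no measured binding site.
C1qb: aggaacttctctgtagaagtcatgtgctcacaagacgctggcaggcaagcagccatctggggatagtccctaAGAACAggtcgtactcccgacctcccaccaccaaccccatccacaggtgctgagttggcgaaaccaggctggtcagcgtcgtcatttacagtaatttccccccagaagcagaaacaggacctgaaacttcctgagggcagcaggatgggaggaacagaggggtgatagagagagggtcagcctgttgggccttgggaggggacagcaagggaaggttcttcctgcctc
C1qc: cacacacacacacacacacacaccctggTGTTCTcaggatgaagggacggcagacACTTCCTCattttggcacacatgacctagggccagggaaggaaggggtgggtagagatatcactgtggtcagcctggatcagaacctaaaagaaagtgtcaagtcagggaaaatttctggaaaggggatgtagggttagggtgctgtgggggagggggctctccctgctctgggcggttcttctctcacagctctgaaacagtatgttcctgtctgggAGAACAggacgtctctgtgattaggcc
Cd163: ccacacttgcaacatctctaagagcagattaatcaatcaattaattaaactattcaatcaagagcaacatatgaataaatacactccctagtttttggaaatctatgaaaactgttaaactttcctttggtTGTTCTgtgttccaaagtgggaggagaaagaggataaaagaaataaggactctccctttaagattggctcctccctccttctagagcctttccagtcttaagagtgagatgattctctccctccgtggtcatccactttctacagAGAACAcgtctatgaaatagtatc
Cd53: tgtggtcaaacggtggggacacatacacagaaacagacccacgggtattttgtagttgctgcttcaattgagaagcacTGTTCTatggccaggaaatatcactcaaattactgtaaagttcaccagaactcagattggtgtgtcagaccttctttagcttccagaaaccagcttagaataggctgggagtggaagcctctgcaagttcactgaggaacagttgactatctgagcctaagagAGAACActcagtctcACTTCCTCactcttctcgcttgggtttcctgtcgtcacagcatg
Ctss: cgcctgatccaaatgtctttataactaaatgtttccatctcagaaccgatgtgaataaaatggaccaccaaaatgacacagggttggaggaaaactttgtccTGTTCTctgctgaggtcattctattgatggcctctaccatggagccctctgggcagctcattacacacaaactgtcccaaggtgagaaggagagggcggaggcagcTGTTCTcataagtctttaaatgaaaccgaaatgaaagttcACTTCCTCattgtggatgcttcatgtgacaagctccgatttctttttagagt

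Markers of other cell types showed what the fractions held. Of 9 tested astrocyte markers, 9 were higher in sorted astrocytes than in tissue (median log2 difference 1.83), and 9 were lower in sorted neurons (median -2.28). Of 8 markers of medium spiny neurons, the main neurons of the region, 8 were lower in astrocytes and 4 were higher in neurons (median 0.92). Mean log2 levels under saline were 12.04 in neurons, 9.41 in astrocytes and 12.44 in tissue for 7 general neuron markers. For 6 oligodendrocyte markers they were 14.08 in astrocytes, 13.16 in neurons and 14.53 in tissue, so both fractions held these transcripts. For 6 mural markers they were 8.53 in astrocytes, 6.41 in neurons and 7.54 in tissue. Endothelial markers were higher in astrocytes for 7 of 8 genes and in neurons for 5 of 8, and red cell genes were higher in neurons for 4 of 5. Among all genes 24.2% were called higher and 27.6% lower in astrocytes than in tissue. In neurons 11% were called higher and 15.9% lower than in tissue. Replicate 5 of tissue after dexamethasone stood apart, with 50.18% of probes detected and a mean correlation of 0.909 with its own group, against at least 0.948 on the other 29 arrays. Results of that group are therefore also given without it. The 30 arrays sat on 5 chips, each chip holding 1 array of every group at a fixed position, so that chip position and group cannot be told apart.

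**Figure D1:**
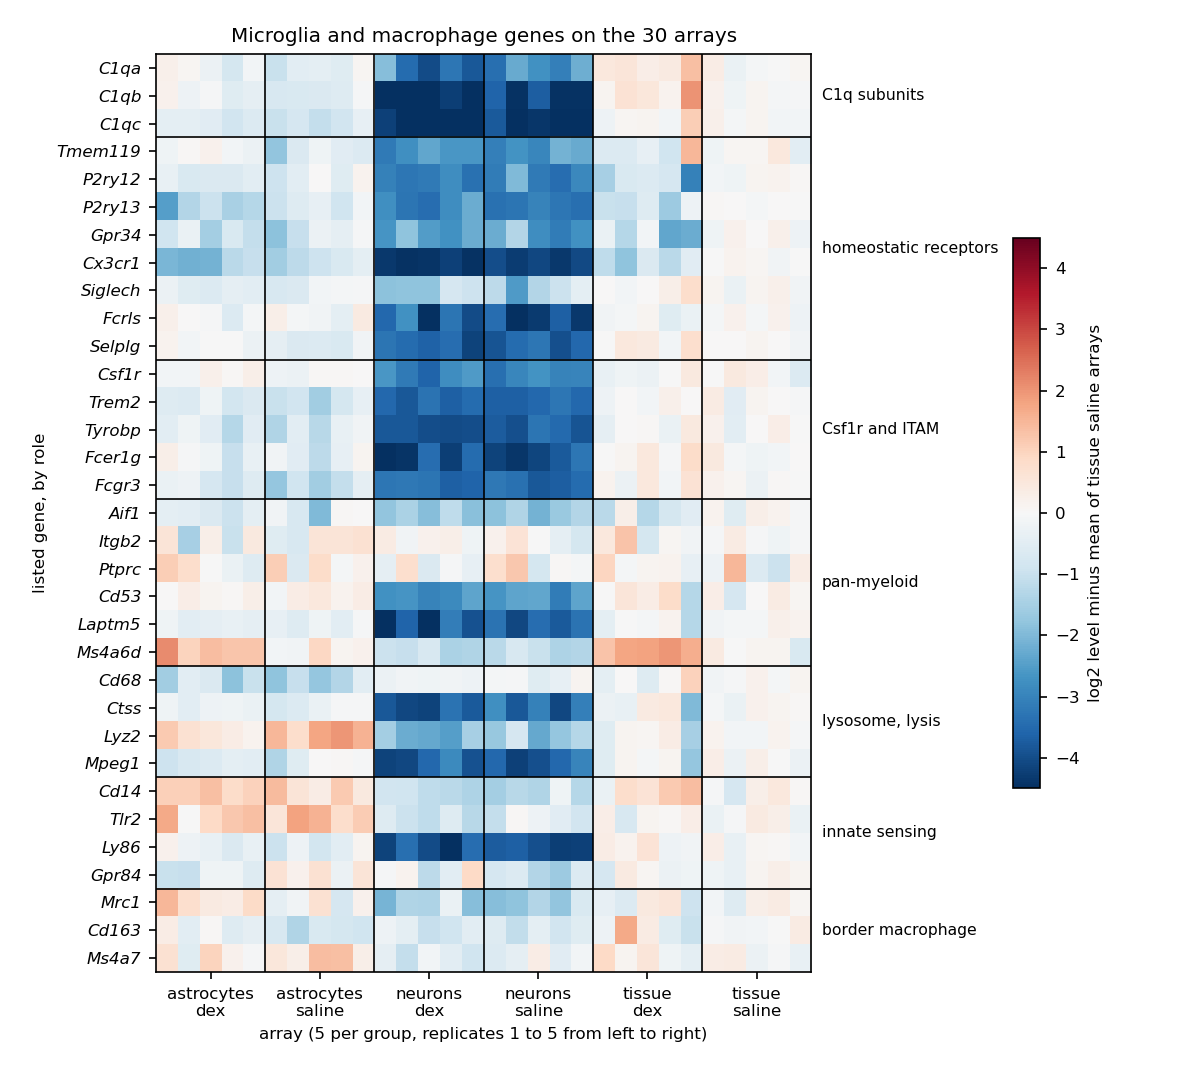
Levels of the 33 tested microglia and macrophage genes (down, grouped by role) on the 30 arrays (across, 5 per group), as log2 level minus the mean of the 5 tissue saline arrays, on a colour scale from blue (lower) to red (higher). Most genes are blue on the 10 neuron arrays; Ms4a6d is red on the dexamethasone arrays of astrocytes and tissue, and replicate 5 of tissue after dexamethasone differs from the other arrays of its group.

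Microglia genes were lower in sorted neurons than in tissue. Under saline 28 of 33 genes were lower in neurons than in tissue and 0 were higher (limma, adjusted p under 0.05), where 26.9% of all genes tested were called, 15.9% lower and 11% higher (with arrays scaled by medians, the higher share of these calls was 23.8% in place of 41.1%). The median log2 difference of the 33 genes was -2.74, against 0 over all genes. Of the 33 genes 12 were detected on no neuron saline array; with 10 of these at their lower bounds and the other 2, whose bound was under 1-fold, at no difference, the median was -2.40. Over the 10 neuron arrays of both treatments, 11 of the 33 genes were detected on none. Without background correction the median was -1.65.

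The 3 chains of C1q, the recognition molecule of the classical complement pathway, were far lower in neurons. C1qc averaged 6.13 ± 0.54 in neurons and 10.75 ± 0.16 in tissue (log2 level, SD, n = 5 each), a log2 difference of -4.62 ± 0.22 (SE; limma adjusted p = 6.66e-10). C1qb differed by -4.14 and C1qa by -2.74. The ranges of neurons and tissue did not overlap for any of the 3 chains, but the share of all tested genes without overlap is not given here.

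All 8 homeostatic receptors were lower in neurons, by a median of -3.10, or -2.62 with 4 genes at their bounds. Cx3cr1 was at least 7.85-fold lower, Selplg, a ligand of selectins, at least 6.88-fold lower, P2ry13 at least 4.61-fold lower and Tmem119 at least 3.45-fold lower, these 4 being detected on no neuron array under saline. Fcrls, a microglial Fc receptor-like protein, differed by -4.05 and P2ry12 by -2.92. Siglech, a sialic acid-binding lectin, differed by -1.29 (adjusted p = 0.00358) at its brightest probe, which was detected on all 10 neuron arrays. Its other 2 probes disagreed with each other. The first was also lower in neurons, where it was detected on no array (5.55 ± 0.16 in neurons and 7.99 ± 0.28 in tissue). The second did not show a lower level, with 6.63 ± 0.53 in neurons and 6.51 ± 0.37 in tissue. All 5 genes of Csf1r and the activating adaptors were lower as well: Fcgr3, a receptor for antibodies, by at least 5.66-fold, Tyrobp by at least 5.61-fold and Trem2 by at least 5.29-fold, while Fcer1g, the Fc receptor gamma chain, differed by -3.95 and Csf1r by -3.00.

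Among the other genes the pattern was mixed. Ly86, a partner of a Toll-like receptor homologue, was at least 8.33-fold lower in neurons, the lysosomal membrane protein Laptm5 differed by -3.59 and the pore-forming protein Mpeg1 by -3.63. The 5 genes that did not pass the test between neurons and tissue were Cd68, Itgb2, Ptprc, Ms4a7 and Tlr2. Cd68, a lysosomal glycoprotein of macrophages, had a log2 level of 8.74 ± 0.26 in neurons and 8.93 ± 0.15 in tissue (difference -0.19, adjusted p = 0.571). Itgb2, the common chain of the leukocyte integrins, and Ptprc, the leukocyte antigen CD45, differed by -0.08 and 0.23, and were detected on 3 and 2 of the 5 neuron saline arrays. Ms4a7 differed by -0.26, and Tlr2, a sensor of bacterial lipoproteins, was detected on no neuron array. In tissue after saline Ptprc and Ms4a7 were detected on 2 of 5 arrays each and Tlr2 on 3. These genes were thus near background in tissue too, and their levels in the 2 preparations cannot be called equal.

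Sorted astrocytes, unlike neurons, held microglia transcripts at levels of the order of those in tissue. Under saline 4 of 33 genes were higher and 11 lower in astrocytes than in tissue, where 51.9% of all genes were called, 24.2% higher and 27.6% lower (higher share of the calls 46.7%, or 36.2% with median scaling). The median of the 33 genes was -0.38, against -0.04 over all genes. Array scaling by medians moved the median of all genes to -0.18 here and to -0.12 between neurons and tissue, so differences of that size depend on the scaling. With median scaling Gpr34, C1qa and Ly86 were also called lower in astrocytes (-0.95, -0.69 and -0.67), and the call of Cd14 as higher was lost (0.60, adjusted p = 0.108). With all 30 arrays in 1 fit the calls of C1qb (0.0863), P2ry13 (0.0549) and Tmem119 (0.0573) were lost, and between neurons and tissue that of Cd163 (0.0965).

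Several genes of resting microglia were lower in astrocytes. Of the 8 microglia-enriched genes (the homeostatic receptors without Selplg, with Trem2), 4 were lower and 0 higher, with a median of -0.65. Cx3cr1 had levels of 8.13, 8.51, 8.74, 9.0 and 9.23 in astrocytes and 9.65, 9.83, 9.78, 9.51 and 9.65 in tissue, a difference of -0.96 ± 0.17 (limma adjusted p = 0.000186) with no overlap. Trem2 differed by -0.92 (0.000957), Tmem119 by -0.75 (0.031) and P2ry13 by -0.58 (0.00396); P2ry12 and Gpr34 did not pass (-0.36 and -0.72). Fcgr3 was lower by -1.14 ± 0.21 (0.000263), C1qc by -0.80, Tyrobp by -0.72 and C1qb by -0.55. Csf1r differed by -0.06 ± 0.18 (0.803) and Fcrls by -0.01 ± 0.21 (0.986), and neither passed. Leaving out single arrays ended the calls of C1qb and Tmem119 in 4 of 15 fits each; for C1qb these were the fits without astrocyte saline replicates 1 and 2 and tissue saline replicates 1 and 3, and for Tmem119 without astrocyte saline replicate 1 and tissue saline replicates 2, 3 and 4.

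The genes that were higher in astrocytes included sensors of microbial products and a lysozyme. Lyz2, which digests bacterial walls, stood at 9.64, 8.95, 9.94, 10.15 and 9.70 in astrocytes and at 8.31, 8.04, 8.02, 8.30 and 8.08 in tissue, a difference of 1.53 ± 0.25 (2.88-fold, limma adjusted p = 8.28e-05) with no overlap. Tlr2 was higher by 1.18 ± 0.26 (0.00119), Cd14, the co-receptor for bacterial endotoxin, by 0.79 ± 0.28 (0.0282) and Ms4a7 by 0.76 ± 0.26 (0.0217). The calls of Cd14 and Ms4a7 were each lost in 4 of 15 fits that left out an array: for Cd14 without astrocyte saline replicates 1 and 4 and tissue saline replicates 1 and 2, and for Ms4a7 without astrocyte saline replicates 3 and 4 and tissue saline replicates 3 and 5. Ms4a7 was near background, detected on 2 of 5 saline arrays in astrocytes and on 2 of 5 in tissue. Cd68 was lower in astrocytes, by -1.28 ± 0.22 (0.000109). In a direct comparison of astrocytes with neurons under saline, 29 of 33 genes were higher in astrocytes and 1, Cd68, was lower (-1.09), where 58.1% of all genes were called, 27% higher and 31.2% lower.

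**Figure D2:**
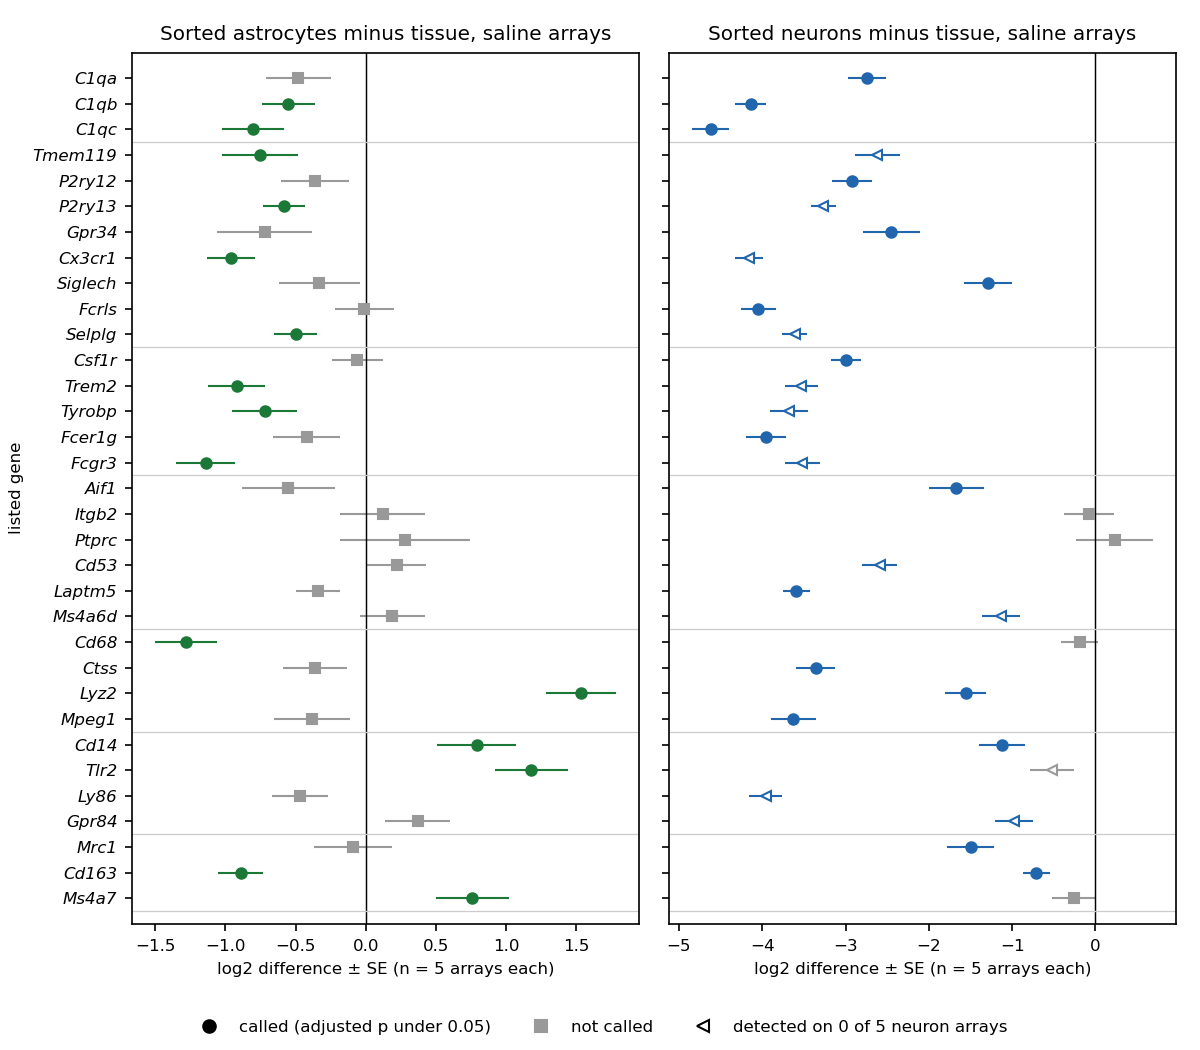
Log2 difference ± SE under saline of sorted astrocytes minus tissue (left) and of sorted neurons minus tissue (right) for the 33 genes, n = 5 arrays per group; filled circles passed limma's test, grey squares did not, and open triangles mark genes detected on 0 of 5 neuron saline arrays, in colour where they passed. In neurons most genes lie between -1 and -5; in astrocytes most lie between 0 and -1, with Lyz2, Tlr2, Cd14 and Ms4a7 to the right of 0.

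Other inflammatory genes from lists of the same pathway differed between astrocytes and tissue too. Of 9 tested cytokine and activation genes, 8 were higher in astrocytes and 1 lower (median 2.13), beside 24.2% and 27.6% of all genes. The part of the sort's handling in these differences cannot be told apart from that of the cells present. Ccl4 was higher by 3.99 ± 0.33, Ccl3 was at least 9.90-fold higher and Il1b at least 3.22-fold higher, the last pair being detected on no tissue saline array; all 3 are secreted by activated microglia. Among 7 ligands that act on microglia, Cx3cl1, the neuronal ligand of Cx3cr1, was lower in astrocytes by -3.08, Il34, a ligand of Csf1r, was lower by -1.63, and Tgfb2 was higher by 1.48. The myeloid factors Spi1 (which encodes PU.1) and Runx1 had no detected probe. Of markers of other blood cells, 1 of 4 tested for monocytes, 2 of 7 for neutrophils and 3 of 8 for lymphocytes; the monocyte gene Plac8 was higher in astrocytes (1.10, adjusted p = 0.00285), and Ccr2 had no detected probe. The part of these cells in the levels above was not tested. Genes linked to disease-associated microglia were called higher in astrocytes for 6 of 9 tested and lower for 1, beside 24.2% and 27.6% of all genes. These genes are not limited to microglia, and the cells that gave their signal cannot be told apart here. Of 10 tested Fc and Toll-like receptors, 3 were higher and 0 lower, a higher share near the 24.2% of all genes.

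The change with dexamethasone in sorted astrocytes passed the test for 1 of the 33 genes. Among all genes 1.77% were called, 1.41% higher and 0.363% lower, so that 79.5% of the calls were higher (91.5% with median scaling). The median of the 33 genes was 0.09, against -0.01 over all genes. Of the 33 differences 17 were positive, and 9 had an unadjusted p under 0.05, as did 1340 of all 13228 genes. On simulated arrays of this comparison, 57% of 100 genes changed by 1 on the log2 scale and 94% of 100 changed by 2 were recovered, so that smaller changes could be missed.

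Ms4a6d, a membrane protein of monocytes and macrophages, was the gene that rose. In astrocytes its log2 level was 8.85, 7.71, 8.09, 7.95 and 7.97 after dexamethasone, against 6.58, 6.55, 7.64, 6.83 and 6.90 after saline. The lowest dexamethasone array was above the highest saline array, and the array after dexamethasone was the higher on all 5 chips. The difference was 1.21 ± 0.25, a 2.32-fold increase (limma adjusted p = 0.0368). With the chip as a block the adjusted p was 0.0691, and leaving out single arrays gave 1.03 to 1.40 with adjusted p of 0.0131 to 0.0954; the call remained in 2 of 10 such fits, those without dexamethasone replicate 2 and without saline replicate 3. The other detected probe of Ms4a6d gave the same difference, 1.21 ± 0.25, with levels of 8.31, 7.76, 8.07, 7.45 and 7.30 after dexamethasone and 7.17, 6.12, 6.79, 6.57 and 6.16 after saline.

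The C1q chains had positive differences in astrocytes and did not pass. C1qb had levels of 10.99, 10.59, 10.77, 10.27 and 10.41 after dexamethasone and 10.08, 10.11, 10.16, 10.22 and 10.74 after saline, a difference of 0.34 ± 0.18 (adjusted p = 0.595). C1qc had 10.30, 10.30, 10.23, 9.90 and 10.12, against 9.75, 10.01, 9.69, 9.90 and 10.39 after saline (0.22, adjusted p = 0.825). Each pair of groups overlapped.

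The homeostatic receptors had differences of both signs. P2ry13 had levels of 6.43, 7.59, 7.97, 7.47 and 7.63 after dexamethasone and 7.97, 8.33, 8.54, 8.03 and 8.81 after saline, a difference of -0.92 ± 0.28 (adjusted p = 0.175) that was negative on all 5 chips. Cx3cr1 differed by -0.76 ± 0.28 (0.317; 0.0643 with the chip as a block), also negative on 5 chips. Selplg had levels of 9.67, 9.39, 9.48, 9.49 and 9.22 after dexamethasone and 9.08, 8.85, 8.87, 8.83 and 9.33 after saline (0.45 ± 0.14, 0.185). Tmem119 was the higher after dexamethasone on all 5 chips (0.68 ± 0.26, 0.349), with 1 low saline array. Of the 8 genes 0 passed, 4 had an unadjusted p under 0.05 (1340 of all 13228 genes), and the median was -0.16.

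All 5 genes of Csf1r and the activating adaptors had small positive differences, from 0.12 to 0.56, of which 0 passed. Fcgr3 had levels of 8.91, 8.99, 8.47, 8.19 and 8.62 after dexamethasone and 7.48, 8.33, 7.64, 8.14 and 8.79 after saline (0.56 ± 0.26, adjusted p = 0.493). Trem2 had 8.54, 8.51, 8.94, 8.29 and 8.47, against 8.12, 8.26, 7.55, 8.32 and 8.74 after saline (0.35 ± 0.21, 0.713). Both pairs of groups overlapped. Itgb2, of the pan-myeloid genes, had 7.46, 5.37, 7.12, 5.88 and 7.31 after dexamethasone and 6.34, 6.16, 7.45, 7.44 and 7.54 after saline, close to the detection limit (-0.36, 0.967).

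Lyz2 and Gpr84 had negative differences in astrocytes that missed the threshold. Lyz2 stood at 9.34, 8.82, 8.66, 8.47 and 8.32 after dexamethasone, against 9.64, 8.95, 9.94, 10.15 and 9.70 after saline, lower on all 5 chips (-0.95 ± 0.25, limma adjusted p = 0.0928). The saline arrays entered both this comparison and that of astrocytes with tissue above. Lyz2 passed without background correction (-0.71, 0.0356) and without saline replicate 2 (0.0340). Gpr84, a receptor for medium-chain fatty acids that activated myeloid cells carry, stood at 5.91, 5.88, 6.70, 6.73 and 6.32, against 7.57, 7.10, 7.60, 6.64 and 7.48 after saline (-0.97 ± 0.24, 0.0799); it was detected on 1 array after dexamethasone and on 5 after saline, and the groups overlapped. With the mean over its probes Gpr84 passed (-0.89, 0.0186). Mpeg1 had 8.87, 9.09, 9.18, 9.37 and 9.32, against 8.46, 9.26, 9.80, 9.87 and 9.74 after saline (-0.26, 0.937). Cd14 had 7.98, 7.97, 8.27, 7.74 and 7.96, against 8.32, 7.48, 7.25, 8.10 and 7.35 after saline (0.28, 0.863). In these last 2 genes the groups overlapped. On the same arrays the mean of the neutrophil genes S100a8 and S100a9 was 5.82 to 7.67 after dexamethasone and 7.17 to 8.16 after saline, and the monocyte gene Plac8 had 6.69 to 7.92 after dexamethasone and 6.87 to 8.21 after saline, each lower on 4 of 5 chips with 0 of the 3 genes called; their part in the values of Lyz2 and Gpr84 was not tested.

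The border macrophage genes Mrc1 and Cd163 had positive differences in astrocytes, and 0 of the 3 genes of the group passed. Mrc1 stood at 8.98, 8.24, 7.89, 7.83 and 8.35 after dexamethasone, against 7.10, 7.33, 8.20, 6.74 and 7.68 after saline, the higher on 4 of 5 chips (0.85 ± 0.29, adjusted p = 0.263). Cd163 stood at 7.96, 7.16, 7.67, 7.03 and 7.2, against 6.91, 6.28, 6.92, 6.84 and 6.72 after saline, the higher on 5 of 5 chips with no overlap (0.67 ± 0.20, 0.183). Its saline level in astrocytes was near background, with a mean of 6.74 and detection on 4 of 5 arrays. In neurons after saline the mean was 6.92, also with detection on 4 of 5. Ms4a7, a membrane protein of border macrophages, stood at 6.96, 5.72, 7.26, 6.45 and 6.23, against 6.78, 6.52, 7.67, 7.62 and 6.55 after saline (-0.50 ± 0.33, 0.789), and was detected on 2 arrays of each group. Groups without overlap were found for 2 of the 33 genes, Ms4a6d and Cd163. The share of all tested genes without overlap is not given here, so this count cannot be set against it.

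**Figure D3:**
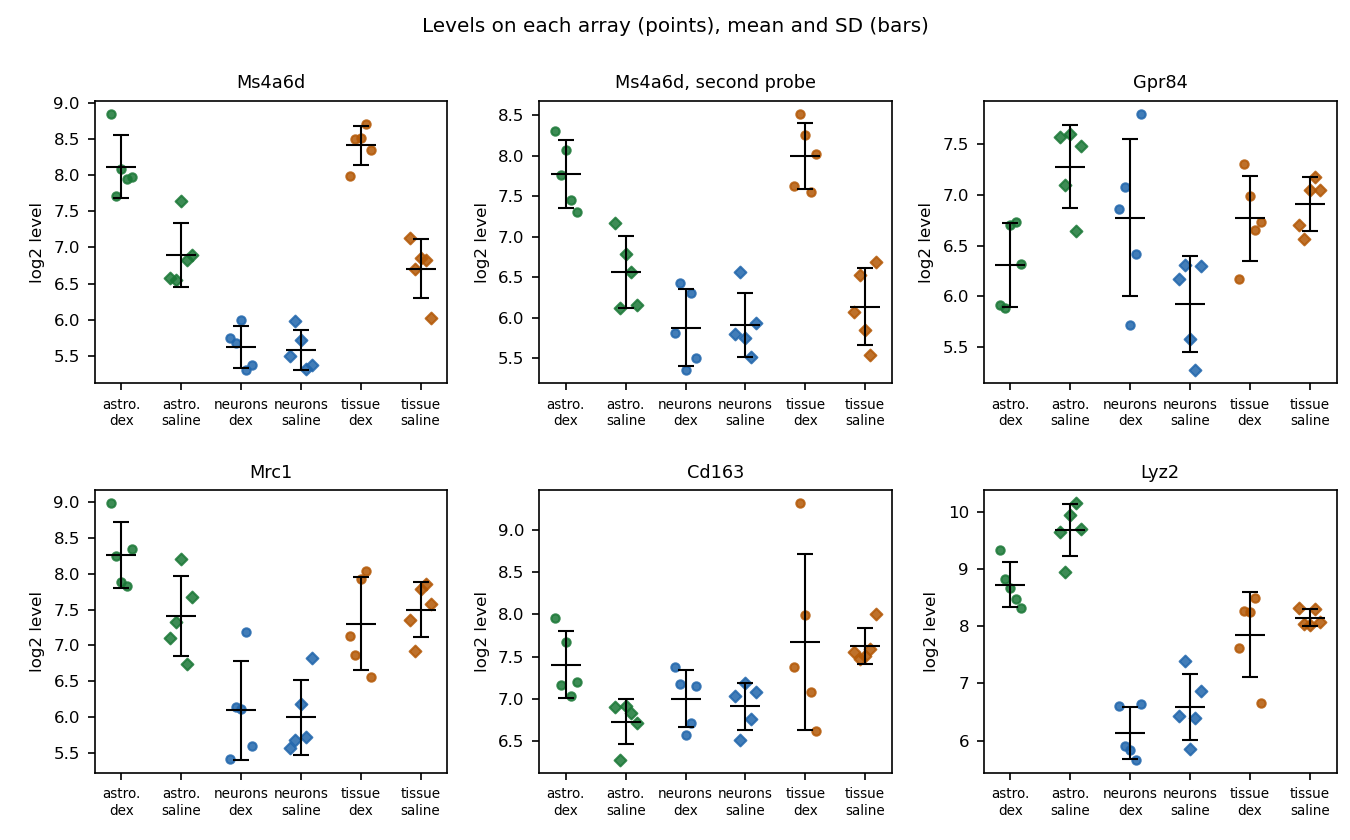
Log2 level on each array (points), with mean and SD (bars, n = 5), for both probes of Ms4a6d and for Gpr84, Mrc1, Cd163 and Lyz2 in the 6 groups; the vertical scales differ between panels and do not start at 0. Both probes of Ms4a6d are higher after dexamethasone in astrocytes and in tissue and low on all neuron arrays.

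In tissue the same gene was the member that passed. Among all genes 0.0378% were called, all 5 of them higher (1 to 10 when single arrays were left out). Ms4a6d had levels of 7.99, 8.5, 8.51, 8.70 and 8.35 after dexamethasone, against 7.13, 6.70, 6.85, 6.83 and 6.03 after saline, with no overlap and the higher on all 5 chips. The difference was 1.70 ± 0.22, a 3.25-fold increase (limma adjusted p = 0.0207), and 1.86 ± 0.26 at its other probe. The adjusted p was 0.129 with the chip as a block and 0.301 with median scaling of the arrays (1.62). Without replicate 5 of dexamethasone the difference was 1.72 (0.0283). Across all fits without an array it was 1.53 to 1.81, with adjusted p of 0.0217 to 0.0998, and the call was lost in 6 of 10: without replicates 2, 3 or 4 of either group.

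The other members in tissue did not pass the test. Their median with Ms4a6d was 0.02, against -0.04 over all genes. Of the 33 genes 8 had an unadjusted p under 0.05, as did 751 of all 13228 genes. Median scaling of the arrays moved the median of all genes to -0.24 and that of the listed genes to -0.19, so the values below are read against that shift.

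The homeostatic receptors P2ry12, P2ry13, Cx3cr1 and Gpr34 were lower after dexamethasone on all 5 chips in tissue, without passing the test over all genes. P2ry12 had levels of 8.07, 8.89, 8.94, 8.80 and 6.53 after dexamethasone and 9.46, 9.36, 9.70, 9.72 and 9.61 after saline (-1.32 ± 0.40, limma adjusted p = 0.605). P2ry13 had 7.93, 7.87, 8.34, 7.29 and 8.69, against 8.99, 8.95, 8.83, 8.92 and 8.89 after saline (-0.89 ± 0.23, 0.461). Cx3cr1 had 8.52, 7.86, 9.02, 8.46 and 9.16, against 9.65, 9.83, 9.78, 9.51 and 9.65 after saline (-1.08 ± 0.23, 0.288). In these 3 genes the groups did not overlap, but the share of all tested genes without overlap is not given here. Gpr34, a lysophospholipid receptor, had 8.33, 7.34, 8.49, 6.29 and 6.37, against 8.41, 8.80, 8.65, 8.84 and 8.4 after saline (-1.25 ± 0.41, 0.684), and its other probe differed by -0.90. Without replicate 5 of dexamethasone the differences were -0.90 for P2ry12 (adjusted p = 0.172), -1.06 for P2ry13 (0.0989), -1.22 for Cx3cr1 (0.0763) and -1.0 for Gpr34 (0.509).

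The other 4 homeostatic receptors did not share this pattern in tissue. Selplg differed by 0.31, Siglech by 0.20, Fcrls by -0.19 and Tmem119 by -0.20, the last turning to -0.62 without replicate 5. Trem2 differed by -0.02, Tyrobp by -0.03 and Csf1r by -0.07. Over the 8 homeostatic receptors the median was -0.54, or -0.74 with median scaling.

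C1q chains had positive differences in tissue that rested in part on replicate 5. C1qb had levels of 10.93, 11.47, 11.31, 10.96 and 12.82 after dexamethasone and 11.02, 10.61, 10.95, 10.72 and 10.76 after saline (0.68 ± 0.31, adjusted p = 0.877), and the difference was 0.35 without replicate 5. C1qa differed by 0.61 (0.729), or 0.43 without replicate 5, and was the higher on 5 of 5 chips. C1qc differed by 0.20, and by -0.03 without replicate 5; with median scaling 2 of the 3 chains stayed positive. Of the sensing and pan-myeloid genes, Cd14 differed by 0.74 (0.852) and Aif1, an actin-bundling protein known as Iba1, by -0.70 (0.807).

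**Figure D4:**
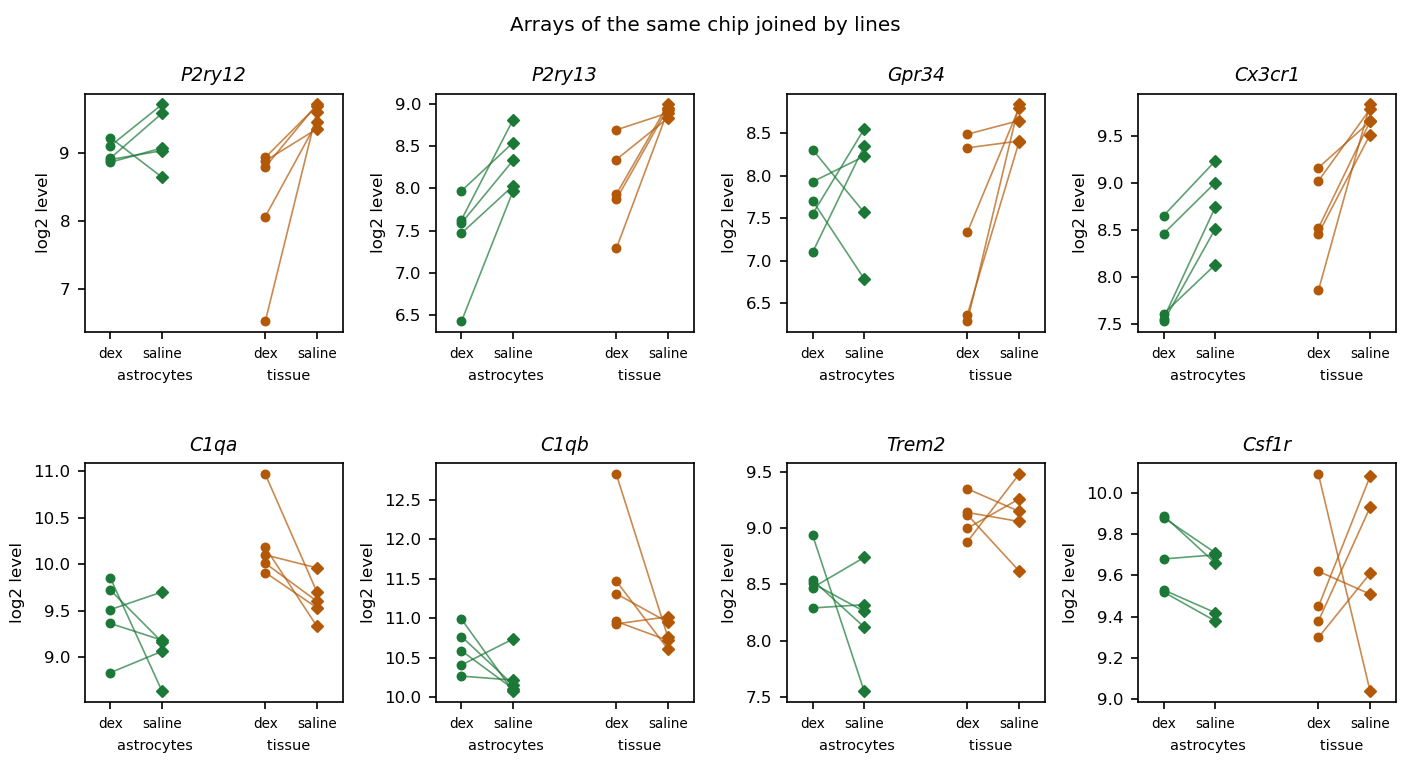
Log2 levels of P2ry12, P2ry13, Gpr34, Cx3cr1, C1qa, C1qb, Trem2 and Csf1r after dexamethasone (circles) and saline (diamonds) in astrocytes and tissue, with the 2 arrays of a chip joined by a line; vertical scales differ between panels and do not start at 0. The tissue lines of the 4 receptors in the upper row all run upward to saline, and those of Trem2 and Csf1r run both ways.

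In sorted neurons 0 of 33 genes passed the test, as did 0 of all 13228 genes (percentage called 0), of which 931 had an unadjusted p under 0.05. Leaving out single arrays gave 0 to 20 genes higher and 0 to 11 lower among all genes. Of the 33 members 2 had an unadjusted p under 0.05: C1qb (limma adjusted p = 0.612), detected on 0 arrays after dexamethasone and 2 after saline, and Gpr84. The median was -0.05, against -0.01 over all genes. Gpr84 had levels of 6.86, 7.08, 5.72, 6.42 and 7.80 after dexamethasone, detected on 3 arrays, against 6.17, 6.31, 5.58, 5.27 and 6.30 after saline, detected on none, and was at least 1.05-fold higher (0.678). Ms4a6d was detected on none of the 10 neuron arrays at either probe. Astrocyte markers were lower on neuron arrays after dexamethasone by a median of -1.17, 7 of 9 with an unadjusted p under 0.05 and 0 called; their mean level per array was 7.73 to 8.64 after dexamethasone and 8.60 to 9.95 after saline. The part of this shift in the neuron values was not tested.

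**Figure D5:**
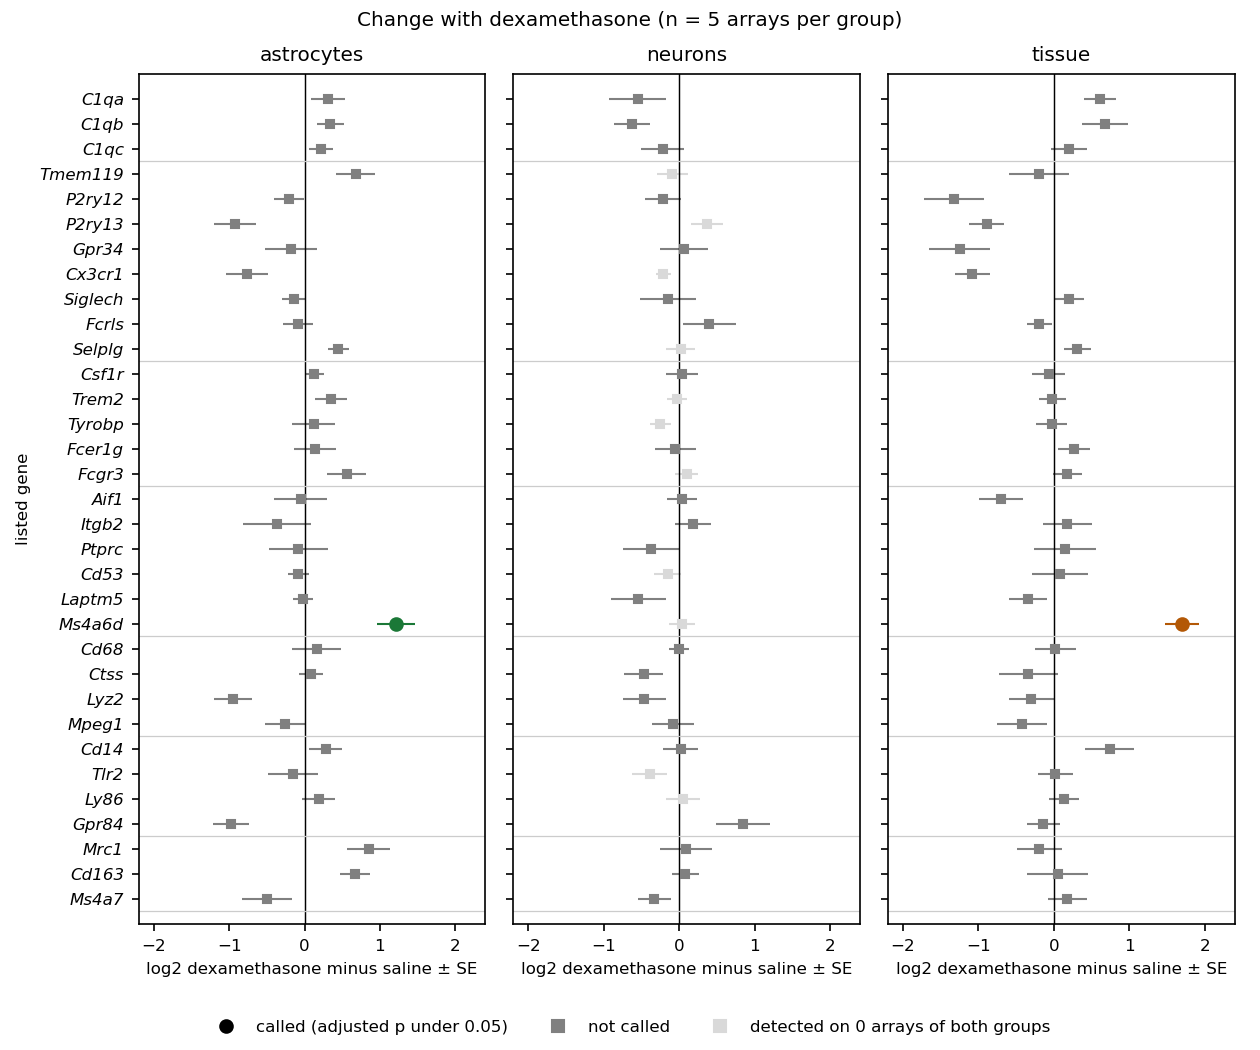
Log2 difference ± SE of dexamethasone minus saline for the 33 genes in astrocytes, neurons and tissue, n = 5 arrays per group; coloured circles passed limma's test, grey squares did not, and pale squares mark genes detected on 0 arrays of both groups. Ms4a6d, at 1.21 in astrocytes and 1.70 in tissue, is the only coloured point.

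Differences between the responses of 2 preparations were tested as interactions on all 30 arrays. Between neurons and tissue 0.0529% of all genes were called, all of them lower in neurons, and 1 of 33 members was among them: the response of Ms4a6d was called lower in neurons (-1.66 ± 0.32, limma adjusted p = 0.0460; 0.0358 with the chip as a block). As the gene was detected on no neuron array, no neuron response was measured and the size of this difference cannot be read. The call was lost in 25 of 30 fits that left out an array, without background correction (-0.83, 0.135), with median scaling (-1.53, 0.464), with no detection filter (0.0638) and with the value table (0.156). Between astrocytes and neurons 0.824% of all genes were called (109 genes, of which 11, or 0.0832% of all genes, had a lower response in astrocytes), and 1 of 33 members passed, Gpr84, lower by -1.82 ± 0.41 (0.0233), at -0.97 in astrocytes and at least 1.05-fold higher in neurons. The Gpr84 call was lost in 5 of 30 fits, without astrocyte dexamethasone replicates 1 or 2, astrocyte saline replicate 3, or neuron saline replicates 3 or 4. With detection on 1 of 5 astrocyte arrays after dexamethasone and on no neuron array after saline, the size of -1.82 cannot be read. The other probe of Gpr84 gave -0.51 (0.969), with -0.81 in astrocytes and detection on no neuron array, so the 2 probes disagree. Between astrocytes and tissue 0.355% of genes and 0 members were called; for Ms4a6d the difference of responses was -0.49 (0.833). The astrocyte, neuron and tissue contrasts share no arrays, but any pair of interactions shares 1 response. The labels do not say whether the astrocyte, neuron and tissue samples of 1 replicate number came from the same mice.

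Microglia-enriched and macrophage-enriched genes were also compared by their mean level per array. In tissue the mean of the 8 microglia-enriched genes was 8.73, 8.63, 9.05, 8.48 and 8.84 after dexamethasone and 9.33, 9.30, 9.4, 9.49 and 9.19 after saline, with no overlap. P2ry12, P2ry13, Gpr34 and Cx3cr1 are among these 8 genes. The mean of Mrc1, Cd163 and Ms4a7 was 6.34 to 7.58 after dexamethasone and 7.01 to 7.21 after saline. The 22 other members averaged 8.83 to 9.16 after dexamethasone and 8.78 to 8.98 after saline. Macrophage minus microglia means were -1.51, -1.11, -1.48, -1.42 and -2.50 after dexamethasone (mean -1.60 ± 0.53) and -2.17, -2.29, -2.31, -2.27 and -2.03 after saline (mean -2.21 ± 0.12), so 4 of 5 dexamethasone arrays lay above every saline array and replicate 5 lay below them. Endothelial markers averaged 8.64 to 9.17 after dexamethasone and 9.05 to 9.4 after saline in tissue, and astrocyte markers 11.59 to 11.81 after dexamethasone and 11.48 to 11.86 after saline; the part of such shifts in the means was not tested.

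In astrocytes the 2 sets overlapped between treatments. The microglia-enriched mean was 8.52 to 8.68 after dexamethasone and 8.28 to 9.20 after saline, and the macrophage-enriched mean 7.04 to 7.97 after dexamethasone and 6.71 to 7.60 after saline. The macrophage minus microglia mean was -1.21 ± 0.44 after dexamethasone and -1.71 ± 0.39 after saline (SD, n = 5 each). Neuron marker means were 8.39 to 9.41 after dexamethasone and 9.17 to 9.65 after saline on the same arrays. With the microglia-enriched mean as a covariate, added after seeing the data, the difference of Ms4a6d was 1.28 in astrocytes (limma adjusted p = 0.0549) and 1.87 in tissue (0.919). In tissue this mean was 8.48 to 9.05 after dexamethasone and 9.19 to 9.49 after saline. The tissue fit can therefore hardly tell the covariate from the treatment, and its p cannot be read as a loss of the rise. Chip by chip, the median change of the 33 genes in astrocytes was 0.45, 0.23, 0.10, -0.16 and -0.33, so that the sign of the list's median depended on the chip.

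Between astrocytes and tissue, border macrophage genes differed in both directions. Under saline Cd163 was lower in astrocytes than in tissue (-0.89 ± 0.16, limma adjusted p = 0.000252), Mrc1 differed by -0.09 (0.823) and Ms4a7 was higher (0.76). Ms4a7 was near background in both, with detection on 2 of 5 arrays each. With dexamethasone these genes did not pass in tissue. Their mean levels there after dexamethasone and after saline were 7.31 and 7.5 for Mrc1, 7.68 and 7.62 for Cd163, and 6.45 and 6.27 for Ms4a7. Of 10 further border macrophage genes 5 were tested, and 3 were higher in astrocytes, beside 24.2% of all genes. They were Dab2, an endocytic adaptor, by 1.22, Pf4, a chemokine, by 1.03 and the scavenger receptor Stab1 by 0.79. After dexamethasone Stab1 differed by 0.72 (0.0627) and Pf4 by -0.53 (0.624) in astrocytes, and the hyaluronan receptor Lyve1, detected on no saline array, was at least 1.12-fold higher (0.104); 0 of these 5 passed. Of 11 further microglia genes 8 were tested, of which 5 were lower in neurons (15.9% of all genes) and 2 were lower in astrocytes, near the 27.6% of all genes; 0 were called with dexamethasone.

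Genes of linked pathways that passed in astrocytes after dexamethasone were few. The complement protease C2 was higher by 1.20 ± 0.16 (limma adjusted p = 0.00301) and was the 1 of 7 tested complement genes outside C1q that passed. Il1b, a cytokine that glucocorticoids are known to repress, was lower by -1.73 ± 0.27 (0.00772), detected on 2 arrays after dexamethasone and 5 after saline, and Nfkbia, an inhibitor of NF-kappa B, was higher by 0.98 (0.0343), out of 9 tested activation genes. Of 5 tested genes known to respond to glucocorticoids in macrophages, Fkbp5, a co-chaperone of the receptor, was higher by 3.84 (2.65e-05) and Tsc22d3, a transcriptional regulator, by 1.05 (0.00845). In tissue Fkbp5 was higher by 1.11 (0.0207). The response of Mertk, a receptor for the uptake of dead cells, was higher in astrocytes than in neurons by 1.66 (0.0153). These genes are not limited to myeloid cells, and the cells that gave the signal cannot be told apart in these fractions.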

How the data were processed

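Total RNA of individual mice was measured on Illumina bead arrays in 6 groups of 5. The authors deposited log2 intensities of 46174 probes, not normalized between arrays, and a value table of no stated scale. Quantile normalization of the log2 intensities followed by a further log2 gives that table (largest difference 5e-10). Median deposited log2 intensity per array lay between 7.37 and 8.78; the number of arrays limits the precision. The sources used here name neither the scanner software nor the authors' background step.

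With no detection p among the values used here, 1588 probes for olfactory and other chemosensory receptors served as negative controls for limma's normexp correction (offset 16), followed by quantile normalization and log2. Of the probes, 35725 had 1 gene symbol, 0 several and 10449 none; 28566 were updated by Entrez ID, 2632 by accession, and 4527 kept their symbol. Probes with detection p below 0.05 on 5 or more arrays were kept (22568), and the brightest represented each gene. Tests were two-sided with limma 3.58.1 in R 4.3.3 (lmFit, eBayes, Benjamini-Hochberg over 13228 genes, threshold 0.05): dexamethasone against saline on 10 arrays, interactions on 30, preparations on the 15 saline arrays. A gene undetected on all arrays of a group has only a bound, "at least N-fold": the brighter mean against the dim group's mean, with each dim array raised to its lowest detected level where that was higher.

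The members, gene lists and tests were chosen with earlier results of these data known. Level values per array are given for members called in a dexamethasone comparison or interaction, for the 2 of each role with the smallest p in astrocytes and for the border macrophage genes; any other member given this way was chosen after its values were seen. Other list genes were named if called with dexamethasone or among the 3 smallest p.

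Replicate numbers pair arrays through the chip, per the label descriptions. Dexamethasone and saline arrays of 1 chip deviated together from their group means, with r averaging 0.19 (astrocytes), 0.17 (neurons) and 0.05 (tissue), against -0.05, -0.04 and -0.01 between chips. The chip block, median scaling, no background correction, the value table, other detection filters, the mean over probes, 1 fit of all arrays and leaving out arrays were tried as alternatives. The fit was tested on simulated data.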

Additional observations from a re-analysis of the deposited data

Results flagged for a closer look

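Of 198 groups of 5 arrays examined, 11 (5.56%) held an array far from the other 4, against about 1 in 20 by chance. In tissue after dexamethasone, replicate 5 was far above the rest for C1qa (10.97), C1qb (12.82), C1qc (11.86) and Tmem119 (10.01), and replicate 2 was far below for Tlr2 (5.96). In tissue after saline, replicate 2 was high for Itgb2 (7.23) and replicate 5 for Cd163 (8.0). In astrocytes, replicate 4 after dexamethasone was low for Tyrobp (7.92), while after saline replicate 5 was high for C1qb (10.74) and replicate 1 low for Tmem119 (6.71). In neurons after saline, replicate 4 was high for Cd14 (6.72), the 1 array of that group where it was detected.

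The responses of 2 preparations differed by the interaction test for Gpr84, lower in astrocytes than in neurons (-1.82, limma adjusted p = 0.0233), and for Ms4a6d, lower in neurons than in tissue (-1.66, 0.0460), which was detected on no neuron array, so that the size cannot be read; that call was lost in 25 of 30 fits without an array. For Gpr84 the other probe did not show it. At the probe used, Gpr84 was detected on 1 of 5 astrocyte arrays after dexamethasone and on no neuron array after saline. The size of its difference cannot be read either.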

How the results depend on the processing

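Changed processing moved few counts of listed genes by over 1.5 times; the cause was not tested unless given. With dexamethasone in astrocytes, 0 listed genes were called higher with no detection filter, with probes detected on all 30 arrays (which leaves 3 listed genes), with the replicate block (the chip, which pairs the arrays) and with the covariate added after seeing the data; 1 was called lower without background correction (Lyz2), with the mean over probes (Gpr84) and with all 30 arrays in 1 fit (P2ry13). Median scaling moved the share of higher calls among all genes there from 79.5% to 91.5%. In tissue, 0 were called higher with median scaling (listed median -0.191), with probes detected on all 30 arrays, with the block and with the covariate, and median scaling left 0 calls of any gene. The block ended no other call of a listed gene; with it Ms4a6d had adjusted p of 0.0691 in astrocytes and 0.129 in tissue. For the interaction of neurons and tissue, 0 were called lower without background correction, with median scaling, the value table, no filter or all-array detection. For that of astrocytes and neurons, 0 were called lower with all-array detection and 1 higher (Ms4a6d) with the mean over probes.

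Between preparations, detection on all 30 arrays left 0 higher and 1 lower for astrocytes against tissue, 2 lower (median -1.289) for neurons against tissue and 2 higher (0.959) for astrocytes against neurons. Without background correction the last pair of medians were -1.646 and 1.329. On the 15 dexamethasone arrays 7 genes were lower in astrocytes than in tissue, and 3 values turned: Tmem119 between astrocytes and tissue (0.13, adjusted p = 0.799), and Gpr84 between neurons and tissue (0.01, 0.988) and between astrocytes and neurons (-0.47, 0.246).

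Leaving out each array in turn gave 0 to 1 higher, 0 to 1 lower and medians of 0.004 to 0.152 with dexamethasone in astrocytes, 0 calls and -0.112 to -0.009 in neurons, and 0 to 1 higher, 0 lower and -0.044 to 0.019 in tissue. Interactions gave 0 to 1 higher, 0 to 1 lower and 0.082 to 0.331 (astrocytes and neurons), 0 calls and -0.028 to 0.197 (astrocytes and tissue), and 0 to 1 lower and -0.168 to -0.041 (neurons and tissue). Between preparations the ranges were 2 to 4 higher, 9 to 14 lower and -0.481 to -0.333 (astrocytes against tissue), 28 lower and -2.872 to -2.572 (neurons against tissue), and 29 higher, 1 lower and 2.443 to 2.632 (astrocytes against neurons). Counts over all genes moved by over 1.5 times in these settings. With dexamethasone in astrocytes, 48 genes were lower, against 82 without background correction, 13 with median scaling and 96 in 1 fit. In neurons 0 were called, against 9 lower with median scaling and 6 higher and 47 lower in 1 fit. In tissue 5 were higher, against 3 with all-array detection, 2 with the block, 10 in 1 fit and 0 with median scaling or the covariate, and 0 were lower, against 1 to 2 in 4 settings. Interaction counts moved too: for astrocytes and neurons 11 lower became 23, 6 and 17 (no background correction, median scaling, block), for astrocytes and tissue 42 higher became 66 (no background correction), and for neurons and tissue 7 lower became 0, 1, 2 and 4 (median scaling, no filter, all-array detection, block). Between neurons and tissue 1461 higher became 684 with median scaling. Leaving out single arrays gave, over all genes, 110 to 178 higher and 22 to 49 lower with dexamethasone in astrocytes, 0 to 4 lower in tissue, 9 to 25 lower for the interaction of astrocytes and neurons and 1 to 27 lower for that of neurons and tissue. Signal near background limits Itgb2, Ptprc, Gpr84, Ms4a7, Cd163 in astrocytes and neurons, and most other members in neurons.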
